A study of Mus musculus with 10 samples.

Results

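The Wnt pathway genes described here are 56 genes of mouse, measured in cultured Wolffian ducts, out of 19505 genes named on the array. They were chosen by gene symbol: every gene whose symbol begins with Wnt, Rspo, Fzd, Sfrp or Dkk followed by a digit, and a list of genes given by name. Of the 18 genes listed by name, 15 were found by symbol. The other 3, Ctnnb1 (the beta-catenin gene), Tcf7 and Rnf43, were not found by symbol and are not analysed here. Each of the 56 genes had 1 probe set, the array's set of probes for a gene. By role they comprise 23 ligands (19 Wnt and 4 R-spondin genes), 15 receptors and co-receptors, 10 antagonists, 4 feedback genes and 4 nuclear effectors.

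Wolffian ducts, the embryonic tubes that give rise to the epididymis and vas deferens, were taken from embryos at 16.5 days post-coitum and cultured for 72 h at an air-liquid interface. The groups were 4 cultures with 0.5 µM SAG, a Smoothened agonist, which switches on the hedgehog pathway, 3 cultures with 25 µM cyclopamine, a Smoothened inhibitor, and 3 vehicle cultures, which per the labels had culture medium. The series calls the replicates biological, but whether a culture came from 1 embryo or several, the strain and genotype of the mice, and whether the vehicle medium held the compounds' solvent are not stated in the labels. The sample titles use the word pronephros where the protocols speak of Wolffian duct.

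Wnt proteins are secreted, lipid-modified ligands that bind Frizzled receptors. In the canonical branch, Frizzled and its co-receptor Lrp5 or Lrp6 stop the breakdown of beta-catenin, which then acts in the nucleus with DNA-binding factors of the Tcf and Lef family and switches on feedback genes such as Axin2 and Znrf3. Other ligands, Wnt5a among them, act mainly through branches that control cell shape and polarity. R-spondins amplify the signal by binding Lgr receptors and drawing the ubiquitin ligase Znrf3 away from Frizzled. In the developing genital tract, Wnt9b made by the Wolffian duct epithelium acts on neighbouring mesenchyme.

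The values are the deposited log2 signals. A difference of 1 is therefore a doubling, and signals of different genes are not comparable, since probes differ in brightness. The hedgehog readouts were checked first. Gli1, a hedgehog effector and target gene, had signals of 13.41, 13.41, 13.61 and 13.24 on the SAG arrays, 4.56, 5.37 and 4.99 on the cyclopamine arrays, and 12.63, 11.67 and 11.43 on the vehicle arrays. Every vehicle array lay below the SAG arrays and above the cyclopamine arrays. Gli1, Ptch1 and Hhip, the 3 readouts measured, rose with SAG and fell with cyclopamine against vehicle (limma adjusted p under 0.05), and the SAG call of Gli1 ended without SAG replicate 1, 2, 3 or 4, cyclopamine replicate 3 or vehicle replicate 2 or 3 (limma adjusted p of 0.0530 to 0.204). Adding the replicate number to the fit ended the SAG calls of Gli1 and Ptch1 (limma adjusted p = 0.181 and 0.0785). Cyclopamine replicate 2 stood apart from the other cyclopamine arrays on the second principal component of all probe sets (-51.7, against 13.6 and 13.0), and the calls that changed when it was left out are named. Fits without it have only replicates 1 and 3 in the cyclopamine group. As the array was chosen from these same data, the p-values of those fits can be too small. For SAG against vehicle the differences stay the same without it, and calls change through the pooled spread.

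The arrays also differed in markers of the tissue's cell types. The mean log2 signal of 14 duct epithelium markers, among them Cdh1 and Epcam, was 9.90 to 10.42 on the SAG arrays, 11.82 to 12.54 on the cyclopamine arrays and 10.80 to 11.76 on the vehicle arrays. Summed on the linear scale, these markers gave 26687 to 42103 with SAG, 144818 to 236448 with cyclopamine and 51518 to 93558 with vehicle. For 11 mesenchyme markers, such as Col1a1 and Pdgfrb, the means were 14.68 to 14.81 with SAG, 13.19 to 13.57 with cyclopamine and 14.39 to 14.44 with vehicle, and the sums 713676 to 825140 with SAG, 405376 to 431682 with cyclopamine and 644153 to 684948 with vehicle. The 10 smooth muscle markers had means of 11.44 to 11.65 with SAG, 9.06 to 9.48 with cyclopamine and 11.74 to 12.29 with vehicle. In each of these lists the cyclopamine arrays lay outside the range of the SAG and vehicle arrays: above it for the epithelium, below it for mesenchyme and smooth muscle. Cyclopamine compared with vehicle raised 6 of the 14 epithelial markers and lowered 6 of the 11 mesenchyme and 8 of the 10 smooth muscle markers, while SAG lowered 2 epithelial markers and changed no mesenchyme or smooth muscle marker past the test. Over all probe sets 2.17% rose and 2.95% fell with cyclopamine, and 0.450% rose and 0.279% fell with SAG. The 7 endothelium markers had means of 10.09 to 10.54 with SAG, 8.10 to 9.78 with cyclopamine and 9.43 to 10.49 with vehicle, and the cyclopamine and vehicle arrays overlapped. In these whole-tissue samples, fewer cells of a type and less RNA per cell cannot be told apart, and the part of these shifts in the Wnt gene results was not tested.

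**Figure D1:**
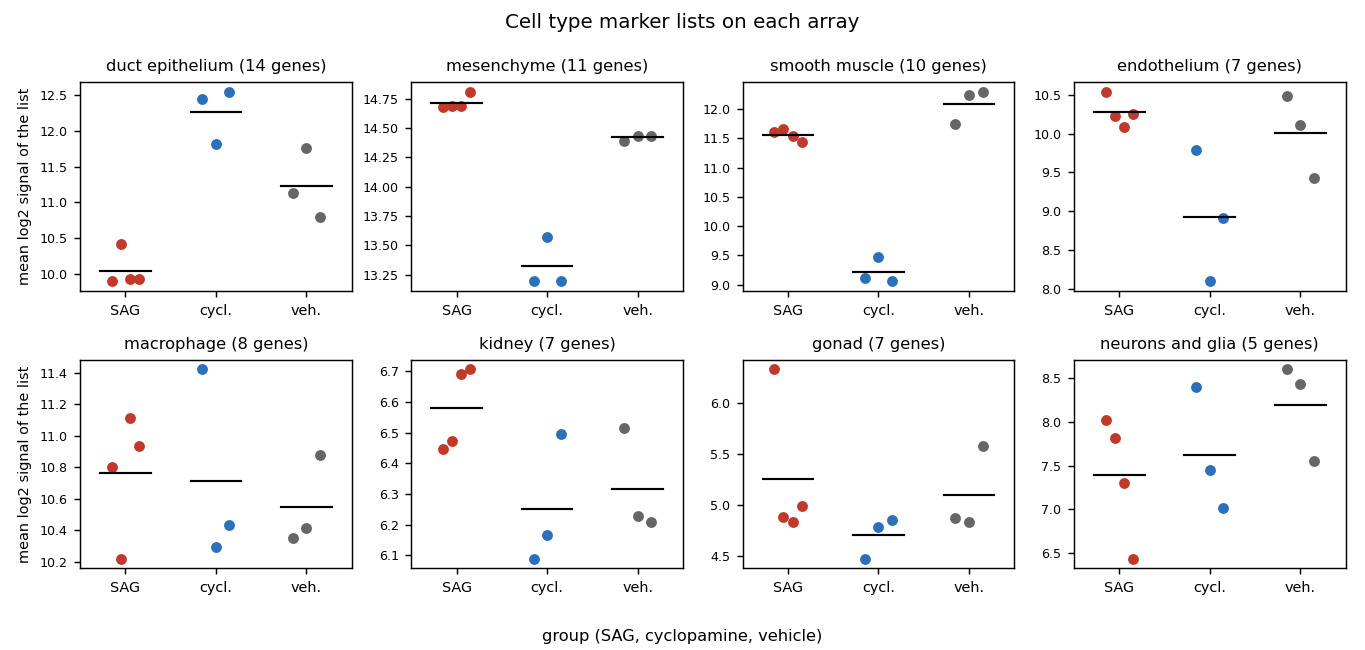
Mean log2 signal of 8 lists of cell type markers (vertical axis) on each array, by group (horizontal axis); points are arrays and lines are group means. Duct epithelium markers lie at 9.90 to 10.42 with SAG and at 11.82 to 12.54 with cyclopamine, while mesenchyme and smooth muscle are lowest on the cyclopamine arrays.

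More Wnt pathway genes passed the test between SAG and cyclopamine than between either compound and vehicle. With SAG compared with cyclopamine, 10 of the 56 genes were higher and 9 lower, 37 not passing the test (limma, adjusted p under 0.05 over all 22206 probe sets). The higher genes were the ligands Wnt5a, Wnt5b and Rspo1, the receptors Fzd1, Fzd7 and Lrp6, the secreted proteins Dkk3 and Sfrp1, and the nuclear factors Lef1 and Tcf7l2. The lower genes were the ligands Wnt7b and Wnt9b, the receptors Fzd6, Fzd8, Fzd10 and Lgr6, the feedback genes Axin2 and Znrf3, and Sp5. Over all probe sets 5.42% were higher and 5.92% lower in this comparison, against 17.9% and 16.1% of the Wnt pathway genes. The median difference of the 56 genes was -0.06, against 0.01 over all probe sets.

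Against vehicle, cyclopamine raised 3 of the 56 genes (Wnt9b, Lgr4 and Znrf3) and lowered 7 (Wnt5a, Wnt5b, Fzd1, Fzd7, Dkk3, Lef1 and Tcf7l2). That is 5.36% higher and 12.5% lower, where 2.17% of all probe sets were higher and 2.95% lower. SAG raised Dkk3 and lowered Axin2, 1.79% in each direction, where 0.450% of all probe sets were higher and 0.279% lower. The 3 comparisons share arrays, each group entering a pair of them. With each array centred on its median, 72.4% of all probe sets called for SAG against vehicle were higher, against 61.7% as deposited, and the counts of Wnt genes for SAG were 1 and 1. Fits with only the arrays of the groups compared called 0 higher and 2 lower genes with cyclopamine against vehicle, Dkk3 and Lef1. Without vehicle replicate 1 the counts were 0 higher and 2 lower, without cyclopamine replicate 3 they were 1 and 2, and without cyclopamine replicate 2 they were 5 and 9. In the last of these fits 3.14% of all probe sets were higher and 3.48% lower. For the other left-out arrays and for the arrays compared only, that share was not computed. Fewer arrays can lower the number of calls for any set of genes.

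**Figure D2:**
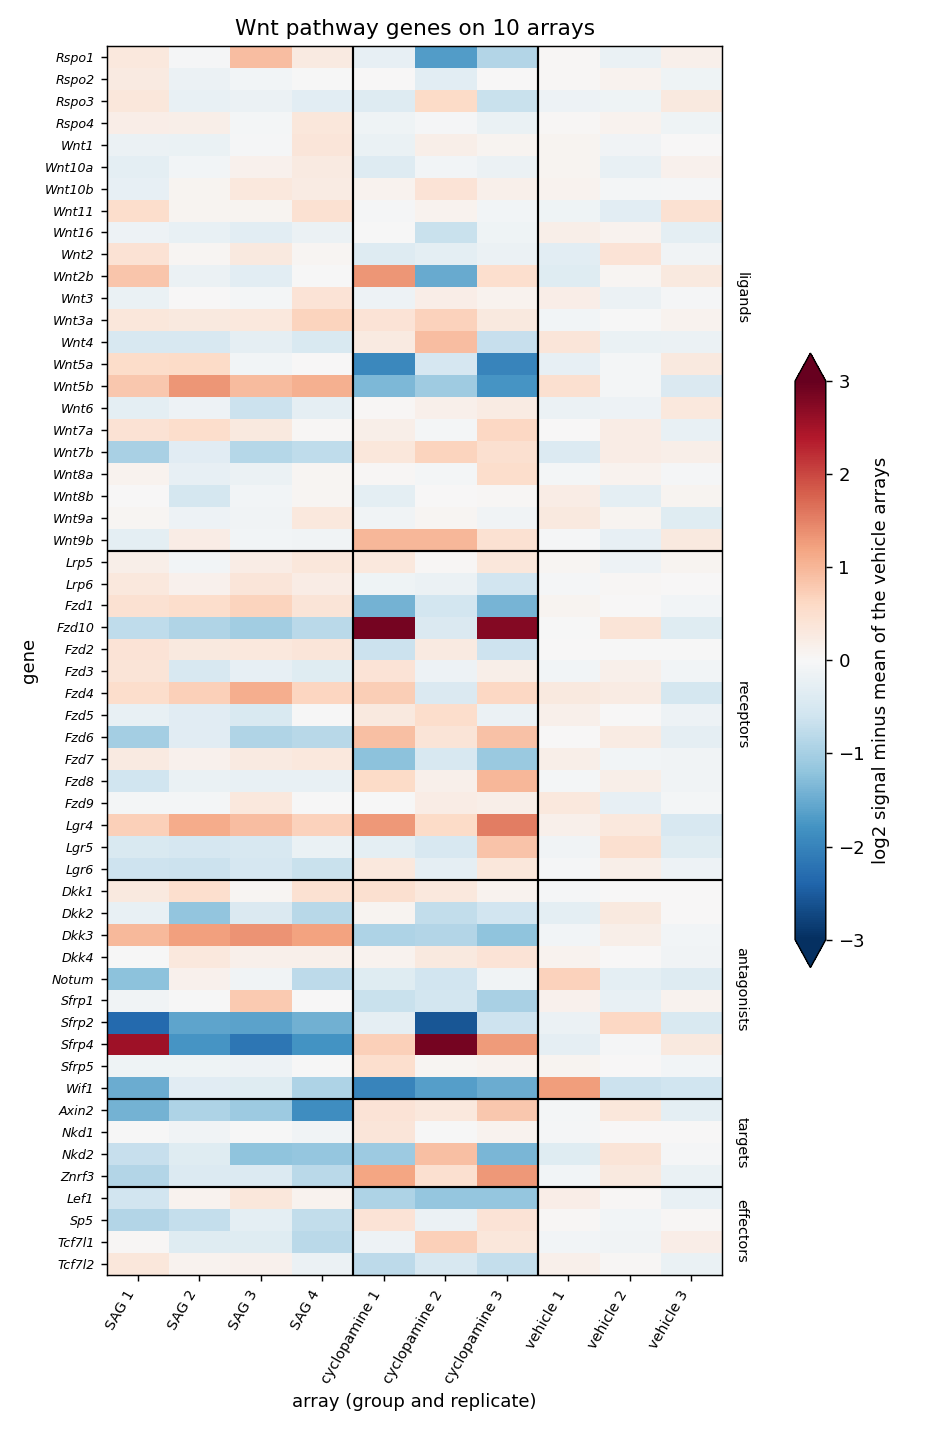
Log2 signal of the 56 Wnt pathway genes (rows, ordered by role) on the 10 arrays (columns), each minus the gene's mean over the vehicle arrays; red is higher and blue lower, with the scale at the right. Wnt5b, Fzd1 and Dkk3 are red with SAG and blue with cyclopamine, while Axin2 and Znrf3 show the opposite, and cyclopamine replicate 2 differs from its group at Fzd10, Wnt2b and Nkd2.

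Among the ligands, Wnt5a and Wnt5b were lower with cyclopamine than with vehicle or SAG. Wnt5b, a close relative of Wnt5a, had log2 signals of 8.26, 8.79, 8.40 and 8.52 on the SAG arrays, 6.12, 6.40 and 5.68 on the cyclopamine arrays, and 7.95, 7.41 and 7.02 on the vehicle arrays. The groups did not overlap, with SAG highest and cyclopamine lowest. Wnt5b fell with cyclopamine against vehicle (-1.39 ± 0.25 (SE), 2.62-fold lower, limma adjusted p = 0.0122). Its difference with SAG against vehicle, 1.03 ± 0.24, missed the threshold (limma adjusted p = 0.0907), and between SAG and cyclopamine it was 5.37-fold higher with SAG (2.43 ± 0.24, limma adjusted p = 0.000122). With only the arrays of cyclopamine and vehicle in the fit, the cyclopamine call ended (limma adjusted p = 0.0525).

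Wnt5a, a ligand of the polarity branch made by mesenchyme in many organs, had log2 signals of 12.75, 12.77, 12.10 and 12.20 on the SAG arrays, 10.25, 11.69 and 10.22 on the cyclopamine arrays, and 11.95, 12.14 and 12.48 on the vehicle arrays. The SAG and vehicle arrays overlapped and the cyclopamine arrays lay below both, with cyclopamine replicate 2 nearest to them. Wnt5a fell with cyclopamine against vehicle (-1.47 ± 0.36, 2.77-fold lower, limma adjusted p = 0.0446) and was 3.33-fold higher with SAG than with cyclopamine (limma adjusted p = 0.00745). The call against vehicle ended with any array but cyclopamine replicate 2 left out (limma adjusted p of 0.0542 to 0.134) or with arrays centred on their median (limma adjusted p = 0.0538), and without cyclopamine replicate 2 the fall was larger (-1.96 ± 0.24, limma adjusted p = 0.00184). The mesenchyme markers were lowest on the cyclopamine arrays too, and their part in the Wnt5a and Wnt5b differences was not tested.

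Wnt9b and Wnt7b, ligands of epithelial ducts, were lower with SAG than with cyclopamine. Wnt9b, the epithelial signal to the mesenchyme, had log2 signals of 6.65, 7.17, 6.85 and 6.85 on the SAG arrays, 7.94, 7.94 and 7.41 on the cyclopamine arrays, and 6.90, 6.71 and 7.23 on the vehicle arrays. The cyclopamine arrays lay above all others, and SAG and vehicle overlapped. Wnt9b rose 1.77-fold with cyclopamine against vehicle (0.82 ± 0.20, limma adjusted p = 0.0431) and was lower with SAG than with cyclopamine (-0.89 ± 0.19, limma adjusted p = 0.0113). The call against vehicle ended without SAG replicate 3 or 4, cyclopamine replicate 1 or 2 or vehicle replicate 1 or 2 (limma adjusted p of 0.0626 to 0.150) or with an intensity-dependent prior variance (limma adjusted p = 0.0566), and the call between the compounds without cyclopamine replicate 1 (limma adjusted p of 0.0508). Wnt7b, a ligand of the collecting duct epithelium in the kidney, had log2 signals of 7.10, 7.74, 7.22 and 7.31 on the SAG arrays, 8.43, 8.74 and 8.56 on the cyclopamine arrays, and 7.67, 8.30 and 8.26 on the vehicle arrays. The cyclopamine arrays lay above all others, and SAG and vehicle overlapped. It was lower with SAG than with cyclopamine (-1.23 ± 0.20, 2.35-fold lower, limma adjusted p = 0.00225), and neither difference against vehicle passed (-0.74 ± 0.20 with SAG and 0.50 ± 0.21 with cyclopamine). The 14 epithelial markers were highest on the cyclopamine arrays as well, and their part in the Wnt9b and Wnt7b differences was not tested.

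Of the 4 R-spondins, Rspo1, known for its role in ovary formation, differed between the compounds. Rspo1 had log2 signals of 12.65, 12.30, 13.26 and 12.60 on the SAG arrays, 12.07, 10.66 and 11.45 on the cyclopamine arrays, and 12.36, 12.12 and 12.49 on the vehicle arrays. All cyclopamine arrays lay below the others, and SAG overlapped vehicle. It was 2.48-fold higher with SAG than with cyclopamine (1.31 ± 0.31, limma adjusted p = 0.0189), a call that ended without cyclopamine replicate 3 (limma adjusted p of 0.0520), while -0.93 ± 0.33 with cyclopamine against vehicle did not pass (limma adjusted p = 0.148). Of the 7 gonad markers measured, Amh, Dhh, Star and Cyp17a1 had means over all arrays below 5.19, the lower quartile over all probe sets, while Cyp11a1, Nr5a1 and Foxl2 lay above it. Foxl2, an ovarian transcription factor, had log2 signals of 5.86, 5.39, 5.05 and 4.76 on the SAG arrays, 4.02, 3.88 and 4.74 on the cyclopamine arrays, and 5.60, 6.47 and 6.52 on the vehicle arrays. Its cyclopamine arrays lay below all others and below 5.19, and Foxl2 fell with cyclopamine against vehicle (-1.98 ± 0.34, limma adjusted p = 0.00832). It was the only 1 of the 7 gonad markers to pass in that comparison, where their median difference was -0.01. Between SAG and cyclopamine 0 of the 7 passed. The mean of the 7 markers was 6.33 on SAG replicate 1, against 4.83 to 4.99 on the other SAG arrays, 4.47 to 4.85 on the cyclopamine arrays and 4.83 to 5.58 on the vehicle arrays. Cyp17a1, a steroid-synthesis enzyme, stood at 8.03, 3.55, 3.72 and 3.85 on the SAG arrays. The part of gonad RNA in the Rspo1 difference was not tested, nor was that of the mesenchyme markers, which were also lowest on the cyclopamine arrays. Rspo3, another R-spondin, lay between 14.68 and 15.91 on the 10 arrays, with differences of -0.09 ± 0.28 for SAG and -0.16 ± 0.30 for cyclopamine against vehicle.

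The other 18 ligands passed in no comparison. Their differences ran from -0.42 to 0.40 with SAG against vehicle, from -0.28 to 0.46 with cyclopamine against vehicle, and from -0.59 to 0.49 between SAG and cyclopamine. Wnt4, needed for nephron and Müllerian duct formation, was at -0.42 ± 0.31 with SAG and 0.17 ± 0.33 with cyclopamine. Wnt11, a ligand of ureteric bud tips, was at 0.29 ± 0.20 with SAG and -0.01 ± 0.21 with cyclopamine. Wnt3a, a canonical ligand, had the smallest p of these 18 against vehicle, with 0.40 ± 0.14 for SAG and 0.46 ± 0.15 for cyclopamine (limma adjusted p = 0.311 and 0.128). Wnt6, an epithelial ligand, came nearest between the compounds (-0.48 ± 0.17, limma adjusted p = 0.0950). In all, 10 of the 56 genes had a mean signal below the lower quartile of 5.19: 8 ligands (Rspo4, Wnt1, Wnt3, Wnt3a, Wnt8a, Wnt8b, Wnt10b and Wnt16) and the antagonists Dkk4 and Sfrp5.

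In the RefSeq gene order of assembly GRCm38.p6, 4 pairs of the 56 genes are direct neighbours: Wnt6 and Wnt10a, Wnt3a and Wnt9a, Wnt9b and Wnt3, and Wnt10b and Wnt1. The neighbours of one such pair differed: Wnt9b rose with cyclopamine, while Wnt3, named here after its values were seen, was at 0.05 ± 0.18 and had a mean signal below the lower quartile. The difference between the neighbours' changes was not tested.

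Promoter sequence was examined for letters of the factors at the end of each pathway. RefSeq windows of 300 bases (250 before and 50 after an annotated start, GRCm38.p6) were given for 37 of the 56 genes, in 44 windows. The letters CTTTGAT, a binding motif of Tcf and Lef factors, searched on both strands, were in 3 windows, those of Wnt5b, Sp5 and Wnt11, and in 3.73% of all 32851 promoter windows. The letters GACCACCCA, the binding motif of the hedgehog effectors Gli1 to Gli3, also searched on both strands, were in 0 windows of the 56 genes and in 0.253% of all windows. A match is a description of the letters and not a measured binding site. The windows of the 2 genes with a match that passed the test in a comparison, and that of the feedback gene Axin2, which has no CTTTGAT in its window, are printed from 5′ to 3′ on the gene's strand, with the motif in capitals. It begins 71 bases before the start in Wnt5b, where it was in 1 of 3 windows, and 104 bases before it in Sp5. The windows lie at chr6:119449337-119449636, minus strand (Wnt5b), chr2:70474673-70474972, plus strand (Sp5) and chr11:108920099-108920398, plus strand (Axin2).
Wnt5b: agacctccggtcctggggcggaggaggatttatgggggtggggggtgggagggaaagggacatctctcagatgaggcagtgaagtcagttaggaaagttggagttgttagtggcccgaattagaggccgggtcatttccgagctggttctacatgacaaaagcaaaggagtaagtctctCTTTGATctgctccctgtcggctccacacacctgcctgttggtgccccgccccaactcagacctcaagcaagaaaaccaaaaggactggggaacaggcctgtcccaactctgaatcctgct
Sp5: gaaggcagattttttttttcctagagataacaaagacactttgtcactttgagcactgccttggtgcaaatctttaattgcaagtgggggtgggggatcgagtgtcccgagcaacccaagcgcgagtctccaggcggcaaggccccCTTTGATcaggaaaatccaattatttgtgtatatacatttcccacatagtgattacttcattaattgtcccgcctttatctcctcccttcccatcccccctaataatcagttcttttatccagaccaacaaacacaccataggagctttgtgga
Axin2: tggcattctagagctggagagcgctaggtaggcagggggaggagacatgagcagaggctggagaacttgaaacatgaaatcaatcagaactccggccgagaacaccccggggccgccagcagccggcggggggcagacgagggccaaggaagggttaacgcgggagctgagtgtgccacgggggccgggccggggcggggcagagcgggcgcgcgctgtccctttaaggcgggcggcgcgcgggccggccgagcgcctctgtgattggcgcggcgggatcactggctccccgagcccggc

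Frizzled receptors differed in both directions. Fzd1 and Fzd7, which with Fzd2 form a subfamily, were higher with SAG than with cyclopamine, while Fzd6, Fzd8 and Fzd10 were lower. Fzd1 had log2 signals of 12.78, 12.84, 12.98 and 12.71 on the SAG arrays, 10.91, 11.77 and 10.93 on the cyclopamine arrays, and 12.40, 12.32 and 12.24 on the vehicle arrays. The 3 groups did not overlap. Fzd1 fell with cyclopamine against vehicle (-1.12 ± 0.21, 2.17-fold lower, limma adjusted p = 0.0147) and was 3.09-fold higher with SAG than with cyclopamine (1.63 ± 0.20, limma adjusted p = 0.000429), while 0.51 ± 0.20 with SAG against vehicle did not pass (limma adjusted p = 0.368). Fzd7 had log2 signals of 12.80, 12.65, 12.80 and 12.86 on the SAG arrays, 11.31, 12.04 and 11.42 on the cyclopamine arrays, and 12.72, 12.45 and 12.43 on the vehicle arrays. Its cyclopamine arrays lay below all others. It fell with cyclopamine against vehicle (-0.94 ± 0.19, 1.92-fold lower, limma adjusted p = 0.0185) and was 2.28-fold higher with SAG than with cyclopamine (limma adjusted p = 0.00147). Fzd2 had log2 signals of 15.27, 15.17, 15.17 and 15.23 on the SAG arrays, 14.23, 15.13 and 14.24 on the cyclopamine arrays, and 14.89, 14.87 and 14.85 on the vehicle arrays. Cyclopamine replicate 2 lay above the vehicle arrays, unlike the other cyclopamine arrays, and Fzd2 passed nowhere with all arrays (0.68 ± 0.20 with SAG against cyclopamine, limma adjusted p = 0.0531). Without that array it was at -0.63 ± 0.13 with cyclopamine against vehicle (limma adjusted p = 0.0157) and 0.98 ± 0.12 with SAG against cyclopamine (limma adjusted p = 0.000486). The Fzd1 call against vehicle ended without cyclopamine replicate 1 or 3 or vehicle replicate 1 or 2 (limma adjusted p of 0.05002 to 0.0619), and that of Fzd7 without cyclopamine replicate 1 or 3 or vehicle replicate 1 (limma adjusted p of 0.0601 to 0.0783). The mesenchyme and smooth muscle markers were lowest on the cyclopamine arrays too, and their part in the fall of Fzd1 and Fzd7 was not tested.

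Fzd6, a receptor that also acts in planar polarity, had log2 signals of 10.20, 10.88, 10.34 and 10.40 on the SAG arrays, 12.12, 11.61 and 12.11 on the cyclopamine arrays, and 11.24, 11.48 and 10.96 on the vehicle arrays. The groups did not overlap, with SAG lowest and cyclopamine highest. It was 2.82-fold lower with SAG than with cyclopamine (-1.49 ± 0.20, limma adjusted p = 0.000797), and the differences against vehicle, -0.77 ± 0.20 with SAG and 0.72 ± 0.22 with cyclopamine, did not pass (limma adjusted p = 0.143 and 0.0893). Fzd8 had log2 signals of 9.34, 9.75, 9.73 and 9.72 on the SAG arrays, 10.51, 10.10 and 10.95 on the cyclopamine arrays, and 9.88, 10.12 and 9.84 on the vehicle arrays. Its SAG arrays lay below all others, SAG replicate 1 lowest, and it was 1.85-fold lower with SAG than with cyclopamine (-0.88 ± 0.20, limma adjusted p = 0.0144), a call that ended without cyclopamine replicate 3 (limma adjusted p of 0.0506). Fzd5, the close relative of Fzd8 and named after its values were seen, was at -0.47 ± 0.18 in that comparison and did not pass (limma adjusted p = 0.138).

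Fzd10, a receptor of the subfamily of Fzd4 and Fzd9, varied widely within the cyclopamine group. Its log2 signals were 8.14, 8.002, 7.87 and 8.10 on the SAG arrays, 11.79, 8.48 and 11.67 on the cyclopamine arrays, and 8.90, 9.29 and 8.55 on the vehicle arrays. Cyclopamine replicates 1 and 3 were above every other array, and cyclopamine replicate 2 lay below all vehicle arrays and above all SAG arrays. Fzd10 was lower with SAG than with cyclopamine (-2.62 ± 0.64, 6.14-fold lower, limma adjusted p = 0.0233), a call that ended without SAG replicate 2, 3 or 4 or cyclopamine replicate 1 or 3 (limma adjusted p of 0.0526 to 0.0969) or with only the arrays of the groups compared (limma adjusted p = 0.0547). Without cyclopamine replicate 2 the difference was -3.70 ± 0.19 (limma adjusted p = 5.17e-06), and with cyclopamine against vehicle it was 2.82 ± 0.21 (limma adjusted p = 9.93e-05), against 1.73 ± 0.69 with all arrays. On cyclopamine replicate 2 the mean of the duct epithelium markers was 11.82, against 12.44 and 12.54 on the other cyclopamine arrays and 10.80 to 11.76 on the vehicle arrays. The part of these markers in the Fzd10 signals was not tested.

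The co-receptor Lrp6 had log2 signals of 14.24, 14.05, 14.28 and 14.14 on the SAG arrays, 13.80, 13.76 and 13.36 on the cyclopamine arrays, and 13.88, 13.95 and 13.94 on the vehicle arrays. The groups did not overlap, but the differences were small: Lrp6 was 1.46-fold higher with SAG than with cyclopamine (0.54 ± 0.14, limma adjusted p = 0.0259), and that call ended without SAG replicate 1 or 3 or cyclopamine replicate 3 (limma adjusted p of 0.0585 to 0.0949) or with only the arrays of the groups compared in the fit (limma adjusted p = 0.0621). Its relative Lrp5 was at -0.06 ± 0.14 in the same comparison (limma adjusted p = 0.858).

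Among the R-spondin receptors, Lgr4, which in the mouse is required for the growth of the epididymal duct, had log2 signals of 13.48, 13.88, 13.69 and 13.46 on the SAG arrays, 14.07, 13.33 and 14.29 on the cyclopamine arrays, and 12.92, 13.08 and 12.29 on the vehicle arrays. All arrays with either compound lay above all vehicle arrays. Lgr4 rose 2.20-fold with cyclopamine against vehicle (1.13 ± 0.27, limma adjusted p = 0.0375), while 0.86 ± 0.25 with SAG missed the threshold (limma adjusted p = 0.194), and the difference between SAG and cyclopamine was -0.27 ± 0.25 (limma adjusted p = 0.585). The cyclopamine call ended without SAG replicate 2, 3 or 4, cyclopamine replicate 1 or 3 or vehicle replicate 1, 2 or 3 (limma adjusted p of 0.0509 to 0.115). Lgr6 had log2 signals of 5.86, 5.85, 5.98 and 5.80 on the SAG arrays, 6.79, 6.20 and 6.83 on the cyclopamine arrays, and 6.45, 6.67 and 6.32 on the vehicle arrays. The SAG arrays lay below all others, and Lgr6 was 1.67-fold lower with SAG than with cyclopamine (-0.74 ± 0.17, limma adjusted p = 0.0160), a call that ended without cyclopamine replicate 1 or 3 (limma adjusted p of 0.0680 to 0.0687). Lgr5, a stem cell marker in gut and skin, was at -0.41 ± 0.30 with SAG and 0.03 ± 0.32 with cyclopamine and passed nowhere. Fzd4, a receptor that also binds norrin, had the smallest p with SAG against vehicle among receptors that passed nowhere (0.74 ± 0.30, limma adjusted p = 0.390).

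**Figure D3:**
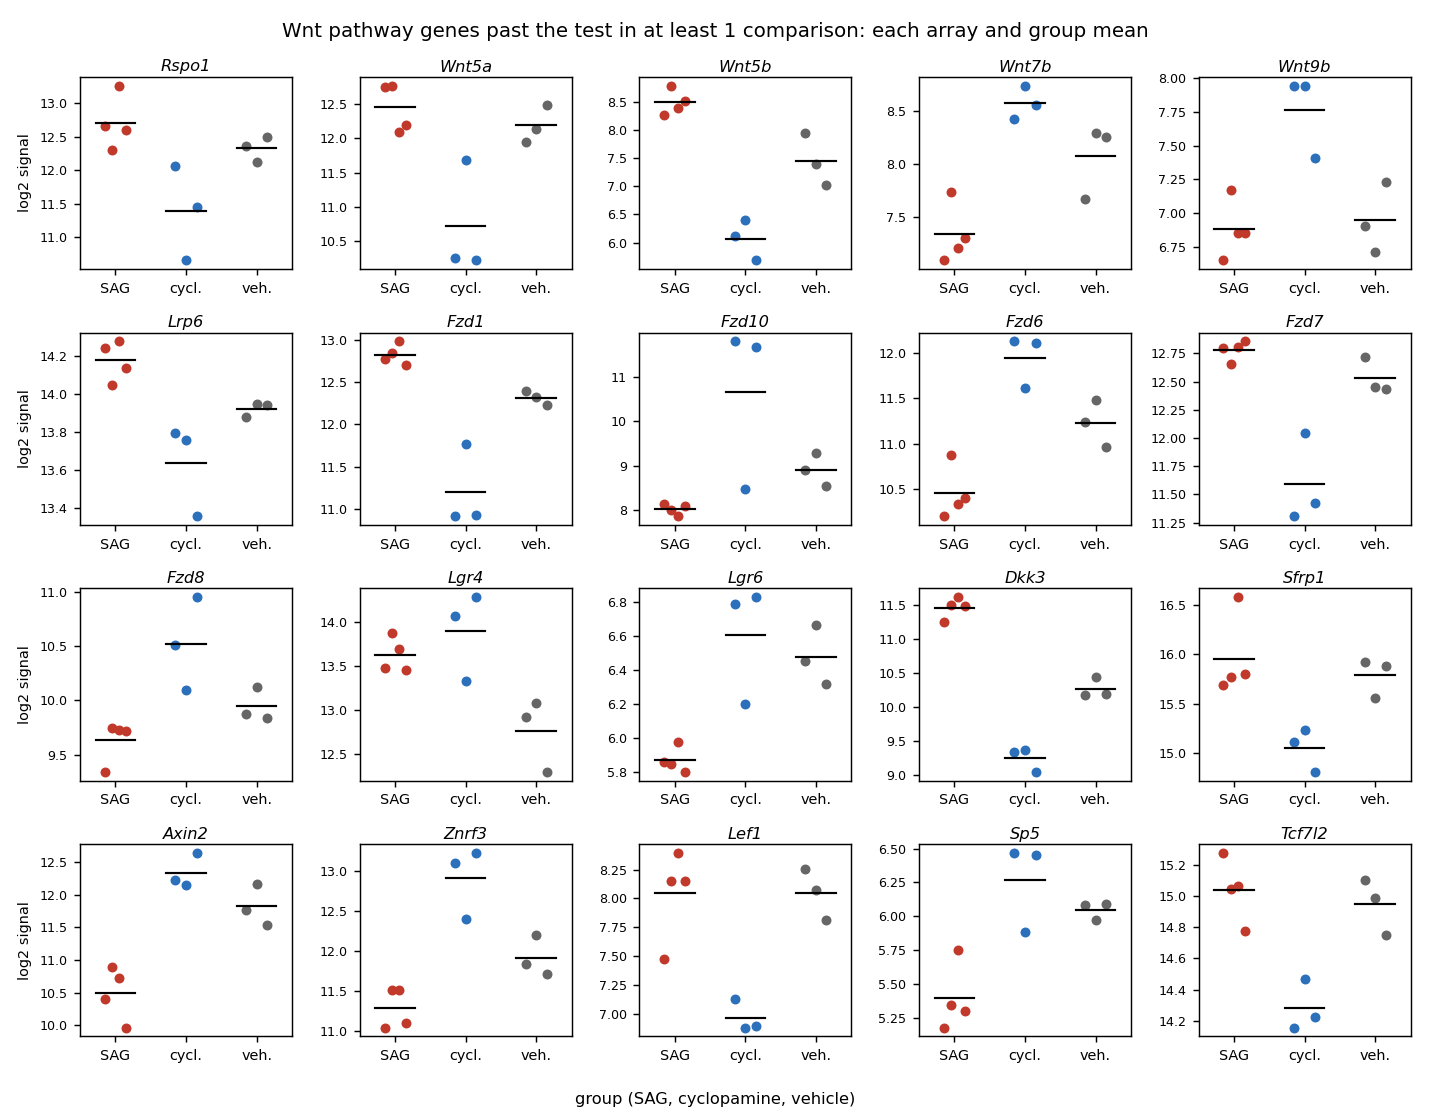
Log2 signal (vertical axes, scaled for each gene) on every array of the 20 genes that passed the test in at least 1 comparison, by group (horizontal axes: SAG, cyclopamine abbreviated cycl., vehicle abbreviated veh.); points are arrays and lines are group means. Dkk3, Wnt5b, Fzd1 and Lrp6 have their vehicle points between those of the compounds, with SAG highest, and Znrf3 and Fzd6 with cyclopamine highest.

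The secreted antagonists held the gene with the smallest adjusted p of the 56. Dkk3, a divergent member of the Dickkopf family, had log2 signals of 11.24, 11.49, 11.61 and 11.47 on the SAG arrays, 9.34, 9.37 and 9.05 on the cyclopamine arrays, and 10.17, 10.43 and 10.19 on the vehicle arrays. The groups did not overlap, with SAG highest and cyclopamine lowest. Dkk3 rose 2.28-fold with SAG against vehicle (1.19 ± 0.14, limma adjusted p = 0.00476) and fell with cyclopamine against vehicle (-1.01 ± 0.15, 2.01-fold lower, limma adjusted p = 0.00476). It was 4.60-fold higher with SAG than with cyclopamine (2.20 ± 0.14, limma adjusted p = 8.12e-06), and the calls in all 3 comparisons held with any single array left out. With the replicate number added to the fit, the call for SAG against vehicle ended (limma adjusted p = 0.0580). Mesenchyme markers were likewise lowest with cyclopamine and highest with SAG, and their part in these differences was not tested. Other Dickkopf genes did not pass. Dkk1, which blocks Lrp6, was at 0.32 ± 0.14 with SAG and 0.30 ± 0.15 with cyclopamine, and Dkk2 was at -0.67 ± 0.26 with SAG and -0.41 ± 0.28 with cyclopamine.

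Sfrp1, a secreted Frizzled-like protein, had log2 signals of 15.69, 15.77, 16.58 and 15.79 on the SAG arrays, 15.11, 15.23 and 14.81 on the cyclopamine arrays, and 15.92, 15.56 and 15.88 on the vehicle arrays. The cyclopamine arrays lay below all others, and SAG replicate 3 above all others. Sfrp1 was 1.88-fold higher with SAG than with cyclopamine (0.91 ± 0.22, limma adjusted p = 0.0213), a call that ended without cyclopamine replicate 1 or 3 (limma adjusted p of 0.0550 to 0.0873). Sfrp2, of the same family, had log2 signals of 12.07, 12.81, 12.79 and 12.94 on the SAG arrays, 14.12, 11.83 and 13.76 on the cyclopamine arrays, and 14.21, 15.02 and 13.95 on the vehicle arrays. All SAG arrays lay below all vehicle arrays, but -1.74 ± 0.49 with SAG missed the threshold (limma adjusted p = 0.175), and the cyclopamine arrays spread over 11.83 to 14.12. Without cyclopamine replicate 2, which bears on that comparison through the pooled spread alone, the same difference had a limma adjusted p of 0.0173, and SAG against cyclopamine stood at -1.29 ± 0.32 (limma adjusted p = 0.0242).

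The remaining antagonists passed nowhere. Wif1, which binds Wnt proteins, had log2 signals of 5.58, 6.72, 6.70 and 6.14 on the SAG arrays, 5.08, 5.41 and 5.57 on the cyclopamine arrays, and 8.33, 6.41 and 6.45 on the vehicle arrays. The cyclopamine arrays lay below all others, with a difference of -1.71 ± 0.47 against vehicle that missed the threshold (limma adjusted p = 0.0676), and vehicle replicate 1 was far above the other vehicle arrays. Notum, an enzyme that removes the lipid of Wnt proteins, was at -0.50 ± 0.34 with SAG and -0.34 ± 0.37 with cyclopamine. Sfrp4, of the Sfrp1 family, varied within groups, with log2 signals of 8.98, 4.66, 4.26 and 4.63 on the SAG arrays, 7.15, 9.32 and 7.71 on the cyclopamine arrays, and 6.16, 6.41 and 6.73 on the vehicle arrays. SAG replicate 1 and cyclopamine replicate 2 were the highest arrays, and the difference between SAG and cyclopamine, -2.43 ± 0.99, did not pass (limma adjusted p = 0.160).

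The feedback genes, which canonical signalling induces, were lower with SAG than with cyclopamine at Axin2 and Znrf3, and Nkd1 and Nkd2 did not pass. Axin2, a scaffold of the complex that breaks down beta-catenin, had log2 signals of 10.40, 10.89, 10.73 and 9.96 on the SAG arrays, 12.23, 12.15 and 12.64 on the cyclopamine arrays, and 11.76, 12.17 and 11.54 on the vehicle arrays. The SAG arrays lay below all others, and the cyclopamine and vehicle arrays overlapped. Axin2 fell with SAG against vehicle (-1.33 ± 0.24, 2.51-fold lower, limma adjusted p = 0.0346) and was 3.59-fold lower with SAG than with cyclopamine (-1.84 ± 0.24, limma adjusted p = 0.000602). The call against vehicle ended without SAG replicate 1, 3 or 4 or vehicle replicate 1, 2 or 3 (limma adjusted p of 0.0604 to 0.191), and that between the compounds held with any array left out. With the replicate number added to the fit, the Axin2 call against vehicle ended (limma adjusted p = 0.141). Znrf3, a ubiquitin ligase that removes Frizzled from the cell surface, had log2 signals of 11.04, 11.51, 11.51 and 11.11 on the SAG arrays, 13.10, 12.41 and 13.23 on the cyclopamine arrays, and 11.84, 12.20 and 11.71 on the vehicle arrays. The groups did not overlap, with cyclopamine highest. Znrf3 rose 1.99-fold with cyclopamine against vehicle (0.99 ± 0.24, limma adjusted p = 0.0390) and was 3.08-fold lower with SAG than with cyclopamine (-1.62 ± 0.22, limma adjusted p = 0.000861), while -0.63 ± 0.22 with SAG against vehicle did not pass. Its call against vehicle ended without SAG replicate 2, 3 or 4, cyclopamine replicate 1 or 3 or vehicle replicate 1, 2 or 3 (limma adjusted p of 0.0526 to 0.122). The epithelial markers were also lowest with SAG and highest with cyclopamine, and their part in the Axin2 and Znrf3 differences was not tested.

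Nkd1, which binds Dishevelled, lay between 10.54 and 11.01 on the 10 arrays (-0.06 ± 0.12 with SAG and 0.15 ± 0.13 with cyclopamine). Nkd2 had log2 signals of 10.03, 10.36, 9.53 and 9.56 on the SAG arrays, 9.64, 11.62 and 9.35 on the cyclopamine arrays, and 10.37, 11.11 and 10.71 on the vehicle arrays, with cyclopamine replicate 2 the highest of all arrays and the other cyclopamine arrays below every vehicle array. With all arrays it was at -0.86 ± 0.47 with SAG and -0.52 ± 0.50 with cyclopamine, and without cyclopamine replicate 2 at -1.23 ± 0.29 with cyclopamine (limma adjusted p = 0.0320). The median of the 4 feedback genes was -0.74 with SAG and 0.33 with cyclopamine against vehicle, where the medians over all probe sets were 0.01 and 0.02.

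Of the nuclear effectors, Lef1 and Tcf7l2 fell with cyclopamine. Lef1, a DNA-binding partner of beta-catenin that is itself a target in many tissues, had log2 signals of 7.48, 8.15, 8.39 and 8.15 on the SAG arrays, 7.13, 6.88 and 6.89 on the cyclopamine arrays, and 8.25, 8.07 and 7.82 on the vehicle arrays. The cyclopamine arrays lay below all others, and SAG and vehicle overlapped. Lef1 fell with cyclopamine against vehicle (-1.08 ± 0.22, 2.12-fold lower, limma adjusted p = 0.0208) and was 2.11-fold higher with SAG than with cyclopamine (limma adjusted p = 0.00668), while SAG against vehicle did not pass (limma adjusted p = 0.998). The call against vehicle ended without cyclopamine replicate 3 or vehicle replicate 1 or 2 (limma adjusted p of 0.0642 to 0.0855). Tcf7l2, a factor of the same family, had log2 signals of 15.27, 15.05, 15.06 and 14.78 on the SAG arrays, 14.16, 14.47 and 14.22 on the cyclopamine arrays, and 15.10, 14.99 and 14.75 on the vehicle arrays. The cyclopamine arrays lay below all others. It fell with cyclopamine against vehicle (-0.66 ± 0.16, 1.58-fold lower, limma adjusted p = 0.0439), a call that ended without SAG replicate 2 or 3, cyclopamine replicate 1 or 3 or vehicle replicate 1, 2 or 3 (limma adjusted p of 0.0579 to 0.148), with quantile normalization again (limma adjusted p = 0.0551) or with arrays centred on their median (limma adjusted p = 0.0593). Between SAG and cyclopamine it was 1.69-fold higher with SAG (limma adjusted p = 0.00860).

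Sp5, a zinc finger factor induced directly by beta-catenin, had log2 signals of 5.17, 5.34, 5.75 and 5.30 on the SAG arrays, 6.47, 5.88 and 6.46 on the cyclopamine arrays, and 6.08, 5.97 and 6.09 on the vehicle arrays. The SAG arrays lay below all others. Sp5 was 1.83-fold lower with SAG than with cyclopamine (-0.88 ± 0.18, limma adjusted p = 0.00990), as were Axin2 and Znrf3, and neither difference against vehicle passed (-0.65 ± 0.18 with SAG and 0.22 ± 0.19 with cyclopamine). Tcf7l1, the family member known mainly as a repressor, passed nowhere (-0.37 ± 0.23 with SAG, 0.30 ± 0.25 with cyclopamine and -0.68 ± 0.23 between SAG and cyclopamine).

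**Figure D4:**
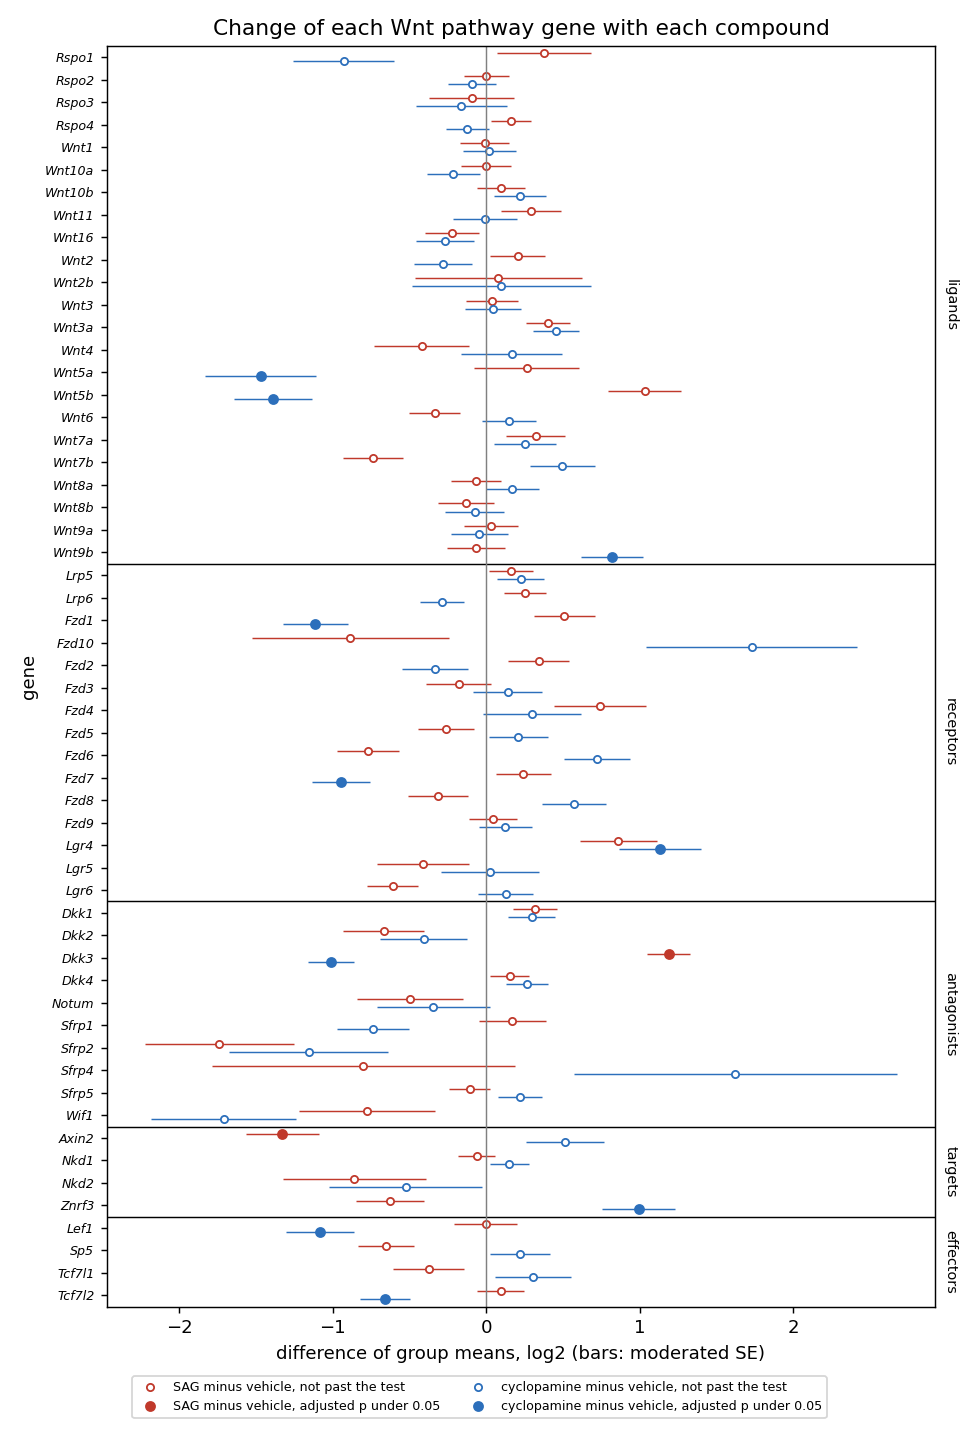
Difference from vehicle (horizontal axis, log2) of each of the 56 genes (vertical axis, ordered by role) with SAG in red and cyclopamine in blue; filled points passed the test and bars are moderated standard errors. Filled points are Dkk3 and Axin2 for SAG and 10 genes for cyclopamine, and both series are measured against the same 3 vehicle arrays.

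Other genes of the pathway were taken from 7 lists of 68 genes, of which 65 were measured. With SAG against vehicle 2 of them rose and 0 fell, with cyclopamine against vehicle 3 rose and 5 fell, and between SAG and cyclopamine 11 were higher and 4 lower. The shares were 3.08% and 0% with SAG, where 0.450% of all probe sets rose and 0.279% fell, and 4.62% and 7.69% with cyclopamine, where 2.17% rose and 2.95% fell. Between SAG and cyclopamine 16.9% were higher, where all probe sets gave 5.42%, and 6.15% lower, near the 5.92% of all probe sets. Without cyclopamine replicate 2 the counts were 6 and 1 with SAG, 2 and 7 with cyclopamine, and 11 and 4 between the compounds, higher before lower. Over all probe sets the shares in that fit, in the same order, were 0.734% and 0.793%, 3.14% and 3.48%, and 5.86% and 6.99%. The calls gained were Ror2, Dact1, Hic1 and Ccn4 (higher) and Apcdd1 (lower) with SAG against vehicle, Ror2, Dact3 and Apcdd1 (lower) with cyclopamine against vehicle, and Ccn4 (higher) and Celsr1 (lower) between SAG and cyclopamine. The calls lost were Wls and Dact1 with cyclopamine against vehicle, and Myc and Draxin between SAG and cyclopamine. Apcdd1, Ccn4, Celsr1 and Draxin are named here after their values were seen. The median differences of the 65 genes in these comparisons were -0.01, -0.02 and -0.02. The list of Dishevelled and the beta-catenin destruction complex had 12 measured genes, among them Ctnnbip1, which binds beta-catenin and belongs to neither. None of the 12 passed in any of the 3 comparisons with limma. An unadjusted limma p under 0.05 was found for 0 with SAG against vehicle, 2 with cyclopamine against vehicle and 1 between SAG and cyclopamine. The share of all probe sets under that unadjusted cutoff was not computed, so these counts have no background beside them. Of 2 genes of ligand secretion, Wls, the carrier that brings Wnt proteins to the cell surface, rose with cyclopamine (0.54 ± 0.12, limma adjusted p = 0.0347), a call that ended without SAG replicate 2 or 3, cyclopamine replicate 1, 2 or 3 or vehicle replicate 1, 2 or 3 (limma adjusted p of 0.0532 to 0.117), and was lower with SAG than with cyclopamine (-0.74 ± 0.12, limma adjusted p = 0.00207). Among 4 co-receptors of the non-canonical branch, Ror2, which binds Wnt5a, was 7.12-fold higher with SAG than with cyclopamine (2.83 ± 0.44, limma adjusted p = 0.00184). Its log2 signals were 12.13, 12.27, 12.16 and 11.48 on the SAG arrays, 8.50, 10.57 and 8.46 on the cyclopamine arrays, and 10.67, 10.74 and 10.74 on the vehicle arrays. The SAG arrays were all above the vehicle arrays, cyclopamine replicate 2 was well above the other cyclopamine arrays, and neither difference against vehicle passed (1.30 ± 0.44 with SAG and -1.54 ± 0.47 with cyclopamine). Without cyclopamine replicate 2, Ror2 was 11.5-fold higher with SAG than with cyclopamine (limma adjusted p = 9.17e-06), and both differences against vehicle passed, 1.30 ± 0.18 with SAG and -2.23 ± 0.22 with cyclopamine (limma adjusted p = 0.00987 and 0.000503). The SAG difference itself was unchanged, and only its SE was smaller.

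Of 12 genes of planar polarity and the Dact family, 4 were higher and 1 lower with SAG than with cyclopamine. These shares of the mixed list were 33.3% and 8.33%, where all probe sets gave 5.42% and 5.92%. The higher genes were Prickle1, Prickle2, Dact1 and Dact3, and the lower gene was Dact2. The other 7, Vangl1, Vangl2, Celsr1, Celsr2, Celsr3, Daam1 and Daam2, did not pass with all arrays. Prickle1 was at 0.67 ± 0.18 (limma adjusted p = 0.0345), a call that ended without any 1 of the SAG arrays or cyclopamine replicate 1 or 3 (limma adjusted p of 0.0535 to 0.125). Prickle2, a cytoplasmic polarity protein, fell with cyclopamine against vehicle (-1.23 ± 0.18, limma adjusted p = 0.00482) and was 3.23-fold higher with SAG than with cyclopamine. Dact1 and Dact2, which bind Dishevelled, went in opposite directions with cyclopamine against vehicle. Dact1 fell (-1.08 ± 0.27, limma adjusted p = 0.0483), a call that ended without SAG replicate 2 or 4, cyclopamine replicate 2 or 3 or vehicle replicate 1, 2 or 3 (limma adjusted p of 0.0558 to 0.150), with quantile normalization again (limma adjusted p = 0.0523), with arrays centred on their median (limma adjusted p = 0.0555) or with only the arrays compared (limma adjusted p = 0.0708). Dact2 rose (0.87 ± 0.21, limma adjusted p = 0.0423), a call that ended with any array but cyclopamine replicate 2 left out (limma adjusted p of 0.0534 to 0.134) or with an intensity-dependent prior variance (limma adjusted p = 0.0514). With only the arrays compared, the cyclopamine calls of Dact2 (limma adjusted p = 0.116), Wls (0.0938), Tnfrsf19 (0.0663) and Pygo2 (0.0522) ended as well. Between SAG and cyclopamine, Dact1 (2.38 ± 0.26) was higher with SAG and Dact2 (-1.12 ± 0.20) lower (limma adjusted p = 0.000216 and 0.00432). Dact3, of the same family, was also higher with SAG (1.00 ± 0.22, limma adjusted p = 0.0125), a call that ended without cyclopamine replicate 1 or 3 (limma adjusted p of 0.0548 to 0.0561). Without cyclopamine replicate 2, Dact3 also passed with cyclopamine against vehicle (-1.01 ± 0.13, limma adjusted p = 0.00255), against -0.68 ± 0.23 with all arrays.

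Of 12 other extracellular modulators, Gpc3, a glypican that binds hedgehog and Wnt ligands, passed in all 3 comparisons. Gpc3 had log2 signals of 16.47, 17.00, 16.69 and 16.91 on the SAG arrays, 14.40, 14.06 and 14.52 on the cyclopamine arrays, and 15.60, 15.57 and 15.48 on the vehicle arrays, with no overlap between groups. It rose 2.32-fold with SAG (1.22 ± 0.16, limma adjusted p = 0.00841) and fell with cyclopamine (-1.22 ± 0.17, limma adjusted p = 0.00383). Its SAG call ended with the replicate number added to the fit (limma adjusted p = 0.0972). Sostdc1, a secreted protein that binds Lrp6 and BMPs, had log2 signals of 9.78, 10.89, 11.16 and 10.13 on the SAG arrays, 6.90, 7.14 and 7.29 on the cyclopamine arrays, and 7.80, 7.78 and 7.31 on the vehicle arrays. The SAG arrays lay far above the others, 7.26-fold higher than vehicle on average (limma adjusted p = 0.00298). Tnfrsf19, a receptor induced by beta-catenin in several tissues, rose with cyclopamine against vehicle (1.06 ± 0.21, limma adjusted p = 0.0178), a call that ended without cyclopamine replicate 1 or 3 or vehicle replicate 1 or 3 (limma adjusted p of 0.0586 to 0.0658), and was lower with SAG than with cyclopamine (-1.57 ± 0.20). Bambi, a decoy receptor for TGF-beta family ligands, was higher with SAG than with cyclopamine (0.78 ± 0.18, limma adjusted p = 0.0176), a call that ended without cyclopamine replicate 1 or 3 (limma adjusted p of 0.0731 to 0.0735).

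Of 11 nuclear co-factors, Pygo1 (-0.94 ± 0.14) and Pygo2 (-0.67 ± 0.14), adaptors that join beta-catenin to chromatin, fell with cyclopamine against vehicle (limma adjusted p = 0.00533 and 0.0225), and the Pygo2 call ended without cyclopamine replicate 1 or 3 or vehicle replicate 1, 2 or 3 (limma adjusted p of 0.0649 to 0.0733). Hic1, a transcriptional repressor, was 3.84-fold higher with SAG than with cyclopamine (1.94 ± 0.36, limma adjusted p = 0.00514). Hic1 did not pass against vehicle with all arrays, and without cyclopamine replicate 2 it passed with SAG (1.48 ± 0.25, limma adjusted p = 0.0218). Among 12 further target genes, Myc was the only one past the test with all arrays, higher with SAG than with cyclopamine (0.86 ± 0.21, limma adjusted p = 0.0251), and that call ended without SAG replicate 2 or 3 or cyclopamine replicate 2 or 3 (limma adjusted p of 0.0516 to 0.0772).

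Within groups, the 56 genes had a median SD of 0.22 on the SAG arrays, 0.29 on the cyclopamine arrays and 0.22 on the vehicle arrays. An SD over 1 was found for 1 gene with SAG (Sfrp4), 5 genes with cyclopamine (Fzd10, Wnt2b, Nkd2, Sfrp2 and Sfrp4) and 1 gene with vehicle (Wif1). Wnt2b, a ligand named here after its values were seen, had log2 signals of 10.90, 9.89, 9.76 and 10.06 on the SAG arrays, 11.39, 8.55 and 10.57 on the cyclopamine arrays, and 9.71, 10.14 and 10.36 on the vehicle arrays. Its lowest and highest arrays were both cyclopamine arrays. Leaving out cyclopamine replicate 2 kept 30 of the 31 calls of Wnt pathway genes over the 3 comparisons, ended that of Wnt9b against vehicle and added 10. The added calls were Fzd10, Lgr6 and Sfrp2 with SAG against vehicle, Fzd10, Fzd2, Fzd6, Fzd8 and Nkd2 with cyclopamine against vehicle, and Fzd2 and Sfrp2 between SAG and cyclopamine. Over all probe sets, the shares called without that array were 0.734% higher and 0.793% lower with SAG, 3.14% and 3.48% with cyclopamine, and 5.86% and 6.99% between SAG and cyclopamine. Of the 31 calls with all arrays, 15 held with any single array left out: 1 of 2 with SAG against vehicle, 2 of 10 with cyclopamine against vehicle and 12 of 19 between SAG and cyclopamine. The share of all called probe sets that held in this way was not computed, so these counts have no background beside them.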

How the data were processed

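Total RNA of 10 Wolffian duct culture samples (4 SAG, 3 cyclopamine, 3 vehicle) was labelled from 100 ng (RNA integrity number 7 or above) and hybridised to Affymetrix arrays, per the labels' protocols. The deposited values are 1 log2 signal per probe set (22206 probe sets), made by the authors, with summarization and normalization not given in the sources used here. The base of 2 was inferred from the range of 2.95 to 18.7. Nearly equal array quartiles show prior normalization between arrays, which can hide a shift shared by most genes. Genes were named from GEO's platform annotation: 19572 probe sets had 1 symbol and 2634 had none.

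A mean per group was fitted to all 10 arrays with limma 3.58.1 in R 4.3.3 (lmFit, contrasts.fit, eBayes, 7 residual degrees of freedom), with two-sided p-values adjusted by Benjamini-Hochberg across the 22206 probe sets, at 0.05, and no filter on low values. The fit was tested on simulated data. Where nothing says that replicates came from separate litters, p-values measure only the spread between these samples. The number of arrays limits precision.

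The genes, lists and tests were chosen with earlier results of these data known. The text names every Wnt pathway gene past the threshold in any comparison, a fixed list of well-known genes, the gene with the smallest p in each role and comparison among the rest, and at most 4 other pathway genes per list and comparison. Prickle1 and the planar polarity genes that did not pass are named beyond that limit. Alternatives were renewed quantile normalization, centring on array medians, leaving out the lowest 25% of probe sets, arrays of the compared groups only, an intensity-dependent prior, a replicate block, a threshold of 0.1, and each array left out.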

Additional observations from a re-analysis of the deposited data

Results flagged for a closer look

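For 6 of the 56 genes, 1 of the 4 SAG arrays stood apart from the other 3 by more than Dixon's critical value, which chance alone passes in about 1 in 20 groups. Groups of 3 arrays were not tested. Sfrp4 had a log2 signal of 8.98 on SAG replicate 1, the highest SAG array, and Fzd8 had its lowest SAG signal, 9.34, on the same array. On that array 7 gonad markers had a mean log2 signal of 6.33 and a summed signal of 1070, where SAG replicates 2 to 4 had means of 4.83 to 4.99 and sums of 249 to 295. The part of this in the Sfrp4 and Fzd8 signals was not tested. On SAG replicate 3, Wnt4 (8.63), Fzd9 (6.77) and Sfrp1 (16.58) had their highest SAG signals. Wnt3a had its highest SAG signal, 4.77, on SAG replicate 4.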

How the results depend on the processing

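The 31 calls of Wnt pathway genes gave 558 values under 18 alternatives. Of these, 459 kept sign and side of the threshold, 99 kept the sign without passing, and 0 changed sign. Averaging probe sets and the threshold of 0.1 reuse the main fit, so they could not end a call and add to the 459 by design. Settings that keep the group means, such as the intensity-dependent prior, could not change a sign. With SAG against vehicle, leaving out 1 array gave 1 to 1 genes that rose and 0 to 4 that fell. With cyclopamine against vehicle it gave 0 to 5 that rose and 2 to 9 that fell. Between SAG and cyclopamine it gave 7 to 11 higher and 7 to 11 lower. With only the arrays compared, 2 genes fell with SAG, and 0 rose and 2 fell with cyclopamine. At a threshold of 0.1, 2 rose with SAG. Whether the replicate numbers pair the arrays is not known. Deviations from the group means correlated at -0.19 to 0.24 over 9 pairs of same-numbered arrays, and at -0.22 to 0.23 over other pairs. As deviations within a group sum to 0, these few correlations cannot settle whether same-numbered arrays shared a litter or a day. With the number as a replicate block, 0 genes rose and 0 fell with SAG, 0 rose and 3 fell with cyclopamine, and 5 were lower with SAG than with cyclopamine. That block ended the SAG calls of Dkk3 and Axin2 against vehicle. Against vehicle it ended the cyclopamine calls of Wnt5a, Wnt9b, Fzd7, Lgr4, Znrf3, Lef1 and Tcf7l2. Between the compounds it ended those of Wnt9b, Lrp6, Fzd8, Fzd10, Lgr6, Sfrp1 and Lef1. The causes of these changes were not tested. Apart from the fit without cyclopamine replicate 2, the shares of all probe sets called with these settings were not computed. Each Wnt pathway gene had 1 probe set, so averaging probe sets changed nothing. Signals near the array background limit what can be seen of the 10 dimmest genes.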
